A study of Oryctolagus cuniculus with 6 samples.

Results

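The comparison described here set the array labelled HPD on day 3 against the array labelled Control on day 3, which is 2 of the 6 arrays of the series. Newly formed tissue was taken from round defects of 5 mm in the parietal bone of male New Zealand White rabbits aged 4 months, 24 animals in the whole study, each with 4 defects. On the right side the defects held 0.2 g of HPD, which is human dentin ground to particles, and the remaining defects of the same animals were left empty as controls. Both arrays therefore share breed, sex, age, surgery and day, and they lie on 1 slide. The labels name the tissue only as new formed tissue, the series text also mentions blood, and no label says how many rabbits or defects gave RNA to an array. There was 1 array a side, so no replicate and no test exists, and every difference below is that of these 2 arrays.

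The arrays were chosen by their labels. Genes are described where a non-control probe without an outlier mark was well above background, by the scanner software, on both arrays. This left 36163 of 43603 probes, 19921 of 23390 features and 9283 of 10076 named genes. A feature is a gene, or an unnamed transcript of the array design, at its brightest probe. A level is the log2 signal minus the 75th percentile of the array, so a level of 0 is that percentile, and a difference is HPD minus control on this log2 scale, so that 1 is 2-fold. The defining genes of bone-forming tissue were well above background on both arrays, with COL1A2 (type I collagen) at 8.76 in control and 8.54 in HPD and IBSP (bone sialoprotein) at 3.60 and 3.77. The keratin gene KRT5 was not well above background on both arrays, and GFAP, an astrocyte gene, stood at -4.27 and -4.34.

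A bone defect first fills with a blood clot, and neutrophils and then macrophages enter it before new matrix is laid down. Osteoclasts, large cells that form by fusion of cells of the macrophage lineage, dissolve mineral with acid and digest the collagen below it with cathepsin K. Dentin is a mineralised collagen matrix like bone, and a dentin graft therefore brings both mineral and collagen into the defect.

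On day 3 many genes of granulocyte granules and of the red cell line had lower signals in the filled defect than in the empty one. EPX (eosinophil peroxidase) was 12.8-fold lower, MPO (the peroxidase of neutrophil granules) 6.68-fold lower, RHAG (the Rh-associated ammonia channel of red cells) 6.46-fold lower, and 7 enzymes of heme synthesis were each at least 2-fold lower. Other genes of these cells differed less or the other way: the mature neutrophil list had a median of -0.04, the metal reductase gene STEAP4 was at 1.46, and the globin genes HBA and HBB2 were at -0.30 and 0.02. In a tissue sample fewer cells of a type and less RNA per cell cannot be told apart. Of all named genes 2.24% were at least 2-fold higher and 2.29% at least 2-fold lower, the shares against which counts of list members are to be read. At least 2-fold higher were 4 of 19 osteoclast genes and 5 of 28 macrophage genes, among them ATP6V0D2, a subunit of the osteoclast proton pump, at 3.34-fold and SPP1 (osteopontin) at 3.37-fold, and the protease gene MMP12 at 4.75-fold. In the same lists the carbonic anhydrase gene CA2 was 4.28-fold lower and CSF1R, the receptor that defines macrophages, was at -0.05. Of 29 genes of bone-forming cells 3 were past 2-fold, while COL1A1 was at -0.10 and the osteoblast regulator SP7 at 0.05. The 3 were MEPE, a matrix phosphoglycoprotein of osteocytes, 9.07-fold lower, and SPP1 and TNFSF11, higher.

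The probes behind the main differences are shown because each value is the signal of a sequence of 60 bases, and because overlapping probes of a gene are the nearest thing to a repeat measurement on these arrays. They run 5′ to 3′ as given in the files, and in the EPX pair the capital marks the 1 base that the other probe lacks.
EPX probe 1: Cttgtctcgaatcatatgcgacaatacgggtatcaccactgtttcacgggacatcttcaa
EPX probe 2: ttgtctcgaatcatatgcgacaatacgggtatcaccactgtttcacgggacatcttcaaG
PRG3: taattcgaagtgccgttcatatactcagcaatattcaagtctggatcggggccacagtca
MPO: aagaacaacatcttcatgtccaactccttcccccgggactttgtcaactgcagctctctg
MS4A3: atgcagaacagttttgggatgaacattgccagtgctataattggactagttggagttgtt
RHAG: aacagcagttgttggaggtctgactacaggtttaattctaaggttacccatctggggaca
TMOD1: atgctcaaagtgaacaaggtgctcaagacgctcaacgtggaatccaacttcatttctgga
MEPE: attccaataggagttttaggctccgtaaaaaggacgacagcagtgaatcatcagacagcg
ATP6V0D2: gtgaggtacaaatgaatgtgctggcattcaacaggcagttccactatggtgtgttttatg
CTSK: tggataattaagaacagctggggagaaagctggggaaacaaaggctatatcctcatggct
LGALS3: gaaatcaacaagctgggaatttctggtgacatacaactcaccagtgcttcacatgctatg
SLC6A6: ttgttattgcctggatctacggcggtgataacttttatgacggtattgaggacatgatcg

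Both EPX probes lie on the minus strand at chr19:30034570-30034629 and chr19:30034569-30034628 of the build oryCun2, which the file headers name, and they differ by a step of 1 base. Their differences were -3.69 and -3.67. The PRG3 probe (minus strand) lies at chr1:190476201-190476260, MPO (plus strand) at chr19:29987709-29987768, MS4A3 (plus strand) at chr1:192830358-192830417, TMOD1 (minus strand) at chr1:15480858-15480917, MEPE (minus strand) at chr15:62320750-62320809 and LGALS3 (plus strand) at chr17:73827307-73827366. A further set spans more than its own 60 bases in the genome, namely RHAG (minus strand, chr12:38838831-38839103), ATP6V0D2 (plus strand, chr3:101633862-101635500), CTSK (plus strand, chr13:41358100-41359632) and SLC6A6 (plus strand, chr9:9989874-9990430). Exon and UTR annotation of this build was not used here.

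Over all features the median difference was 0.13 and the middle 90% ran from -0.71 to 0.88. At least 2-fold higher with HPD were 708 features (3.55%) and at least 2-fold lower 618 (3.1%), together 1326 (6.66%). Of the named genes, 208 were at least 2-fold higher (2.24%) and 213 at least 2-fold lower (2.29%), and their median was 0.09. At 8-fold, 18 features were higher and 17 lower. The named genes nearest the 2-fold line were RTL4 at 1.0024 and RASGEF1B at 0.9973 on the higher side, and S100A1 at -1.0053 and GRAMD1B at -0.9965 on the lower side. The balance of both directions followed the scaling. With the median of each array as the reference it was 453 higher and 846 lower, with quantile normalization 480 and 763, and with the spiked-in control RNAs 497 and 785.

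The 2 directions also sat at different brightness, as the plot of difference against signal shows. Among the 2329 features with a mean level under -4, 128 were 2-fold higher and 33 lower. Among the 2080 with a mean level of 2 or over, 19 were higher and 118 lower. The median difference went from 0.27 in the dimmest of these classes to -0.09 in the brightest. Control RNAs added in known mixture showed the same slope: the 7 brightest were 0.06 to 0.15 higher on the HPD array, and the 3 dimmest 0.39 to 0.51 higher. How much of the difference of dim genes this slope accounts for was not tested.

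**Figure D1:**
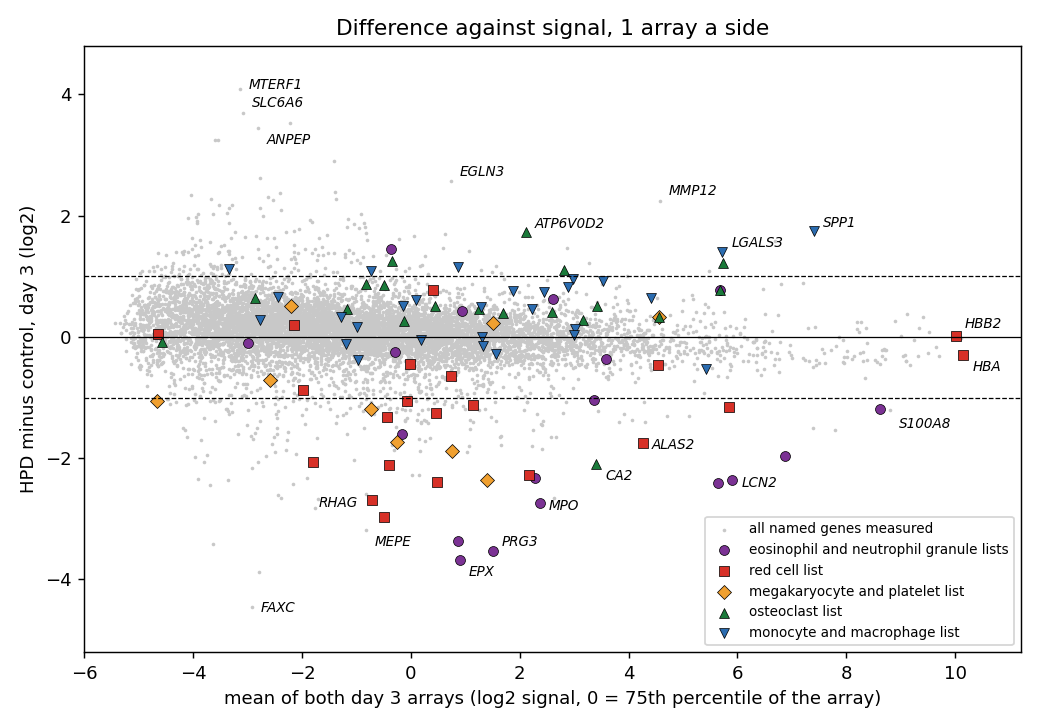
Each point is a named gene, with the mean level of both day 3 arrays (log2, 0 is the 75th percentile of the array) on the horizontal axis and HPD minus control (log2) on the vertical axis, 1 array a side. Coloured points are members of 5 groups of gene lists and dashed lines mark 2-fold. Below the lower dashed line lie, among others, EPX at -3.67 and MPO at -2.74.

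Overlapping probes gave a measure of error. There were 22079 pairs of measured probes that read the same target shifted by 1 to 10 bases, and within a pair the differences lay a median of 0.11 apart. For pairs with a mean level of 0 or over the median gap was 0.05 and 0.24% of pairs were 2-fold or more apart. Under a level of -3 the median gap was 0.28 and 6.69% were 2-fold or more apart. Spots of 42 probes printed 5 times on each array gave a like value, a median standard deviation of the difference of 0.10. The scanner software's own error came to 0.20 for bright genes such as MMP12 and to 0.39 for the dim gene KRT10.

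The same overlap sorted the calls. Of 423 probes that were at least 2-fold lower and had near-identical neighbours, the neighbours' median was at least 2-fold lower too for 347 (82.0%). Of 462 probes at least 2-fold higher, it was at least 2-fold higher for 115 (24.9%), and for 214 it was within 1.5-fold of no difference. At a mean level of 0 or over the shares were 172 of 181 lower probes and 31 of 38 higher ones. The probes were picked by their own value, and neighbours on 1 array are not replicates, so these shares carry no test.

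**Figure D2:**
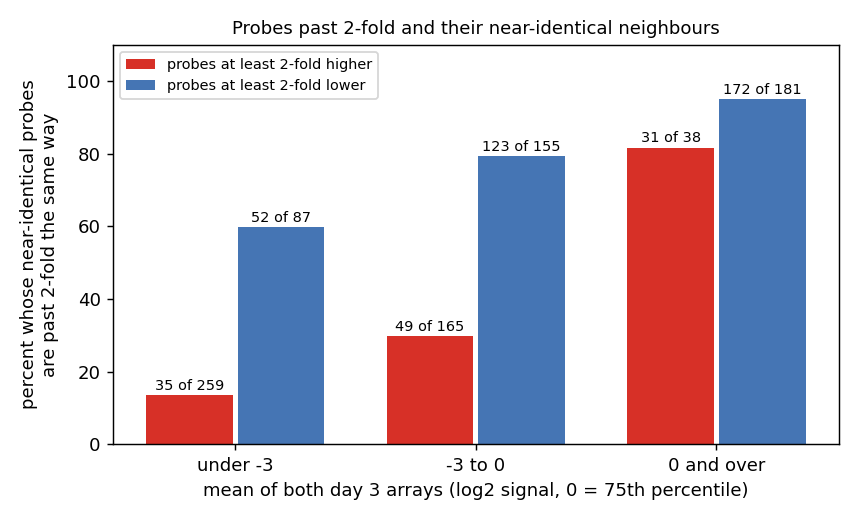
Bars give the percent of probes at least 2-fold higher (red) or lower (blue) with HPD on day 3 whose near-identical probes (same target, shifted by 1 to 10 bases) had a median difference past 2-fold in the same direction, by mean level of both arrays (log2). Under a level of -3, 35 of 259 higher probes were matched by their neighbours, against 172 of 181 lower probes at a level of 0 and over.

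FAXC shows what this means for a single gene, and a pair of its probes is printed for that reason. The capital marks the base that the other probe lacks.
FAXC probe 1: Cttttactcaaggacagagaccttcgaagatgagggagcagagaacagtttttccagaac
FAXC probe 2: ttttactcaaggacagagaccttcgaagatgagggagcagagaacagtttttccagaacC

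FAXC probe 1 (minus strand, chr12:86915233-86915292) had the lowest difference of all named genes, -4.45, from -0.69 in control to -5.14 in HPD. FAXC probe 2, shifted by 1 base (chr12:86915232-86915291), stood at -4.71 and -5.2, a difference of -0.48. The 3 near-identical neighbours of FAXC probe 1 that were well above background on both arrays, probe 2 among them, lay between -0.48 and 0.03, so that probe 1 stood alone. A further neighbour, not well above background on the HPD array, gave -0.75. EPX behaved otherwise, as its 5 overlapping probes lay between -3.69 and -3.43, and so did EGLN3, an oxygen-sensing prolyl hydroxylase, with 5 between 2.57 and 2.68.

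The named genes were then read by function, in 43 lists of cell markers and pathways. A list is given as the number of measured members at least 2-fold higher or lower and its median, to be read against 2.24% and 2.29% of named genes and a median of 0.09. Of all named genes 60.2% lay above 0, the share against which a count of members above 0 is to be read. The lists were not tested. Of 90 members past 2-fold, 28 were within 2-fold under normexp, a background correction that pulls dim signals together. The plot of all lists shows 5 whose median was below -1, all of blood cells, and none whose median was above 1.

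**Figure D3:**
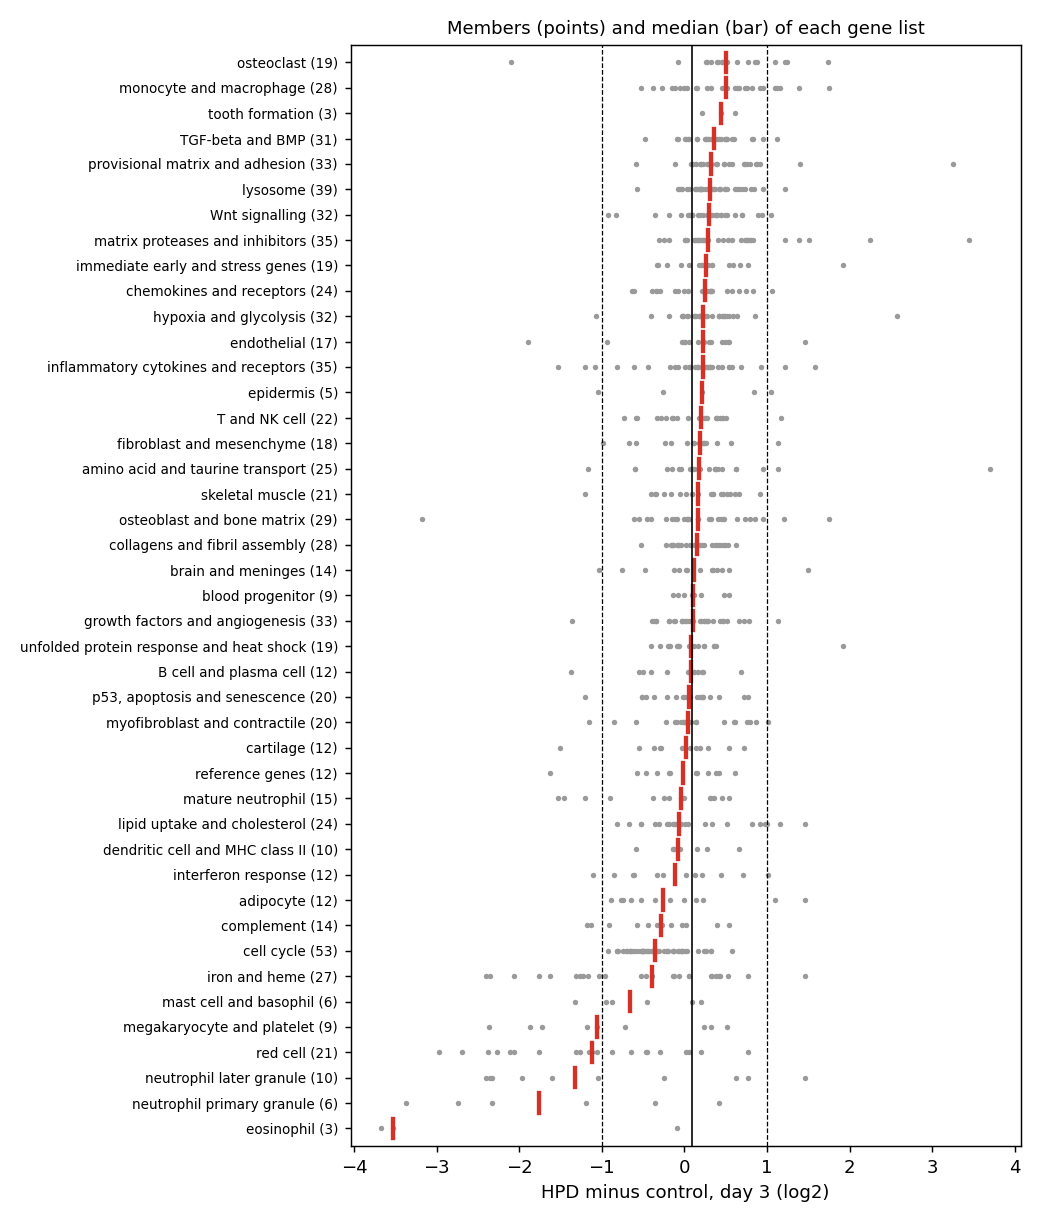
Each row is a gene list with the number of measured members in brackets, each point is a member's HPD minus control difference on day 3 (log2, 1 array a side) and the red bar is the median. The solid line is the median of all named genes (0.09) and the dashed lines mark 2-fold. The eosinophil, neutrophil granule, red cell and platelet lists lie at the bottom, from -3.53 to -1.06, and osteoclast and macrophage lists at the top, both at 0.50. The mast cell and basophil list is at -0.66 and the mature neutrophil list at -0.04.

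Eosinophils are granulocytes that store a peroxidase and basic proteins. EPX stood at 2.73 in control and -0.94 in HPD, and PRG3, a relative of the major basic protein, at 3.27 and -0.26, a difference of -3.53. Both went from above the 75th percentile of the array to below it. IL5RA, the receptor for the eosinophil growth factor interleukin-5, was dim on both arrays, at -2.94 and -3.03. These were the 3 measured members, 2 of them at least 2-fold lower, and the sum of their signals went from 16.4 to 1.48 times the 75th percentile.

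Neutrophils form their granules in turn, the primary ones in the early precursors of the bone marrow. Of 6 measured genes of primary granules 4 were at least 2-fold lower and none at least 2-fold higher, with a median of -1.76. MS4A3, a membrane protein of granulocyte precursors, stood at 2.55 and -0.82, and its 5 probes, none near-identical to the brightest, gave -3.37 to -2.95. MPO stood at 3.75 and 1.0. BPI, a protein that binds bacterial lipopolysaccharide, stood at 3.46 and 1.12, a 5.03-fold difference. MCP-1, a rabbit defensin that the array design also calls macrophage cationic peptide 2, stood at 9.22 and 8.03 and was among the brightest genes on both arrays, with 5 overlapping probes at -1.50 to -1.12. Near-identical copies of this defensin cannot be told apart by these probes. SERPINB1, an inhibitor of the granule proteases, was at -0.36 and CTSC, which activates them, at 0.42.

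Genes on the list named for the later granules, which is not confined to granule proteins, were divided. Of 10 measured, 6 were at least 2-fold lower and 1 at least 2-fold higher, with a median of -1.32. Lower were HP (haptoglobin, 6.86 in control and 4.45 in HPD), LCN2 (the siderophore-binding lipocalin, 7.08 and 4.73), CAMP (cathelicidin, 7.87 and 5.90), ORM1 (orosomucoid, 0.63 and -0.97), LTA4H (leukotriene A4 hydrolase, 3.88 and 2.83) and BPI, which is on both granule lists. The 5 CAMP probes lay between -1.97 and -1.92. STEAP4, a metal reductase, was higher at 1.46, and the gelatinase gene MMP9 (5.29 and 6.06) and the arginase gene ARG1 (2.30 and 2.92) lay on the same side at 0.77 and 0.62. For MMP8, the neutrophil collagenase, the brightest probe gave -0.25 while another of its 4 gave -2.04.

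Markers of the mature circulating neutrophil were mixed. S100A8 and S100A9, the calprotectin chains, stood at 9.4 and 8.56 in control and at 8.20 and 7.04 in HPD, differences of -1.20 and -1.53. All 7 S100A8 probes were lower, at -1.40 to -1.10, while the second S100A9 probe gave -0.07. The chemokine receptor genes CXCR1 and CXCR2 differed little, at -0.01 and 0.31, and so did the integrin chain ITGB2, at -0.25. Of the 15 measured markers 3 were at least 2-fold lower, none at least 2-fold higher, and the median was -0.04. The lists of granule genes and of mature neutrophil genes thus had medians far apart on the same arrays, and whether they differ beyond the spread between animals could not be tested.

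Red cell genes were the largest of the lower groups. Of 21 measured members 12 were at least 2-fold lower and none at least 2-fold higher, with a median of -1.12. TMOD1, which caps the actin filaments of the membrane skeleton, stood at 1.0 in control and -1.97 in HPD. RHAG stood at 0.64 and -2.05 and EPB42 (a protein of the membrane skeleton) at 0.66 and -1.45. HEMGN, a nuclear protein of red cell precursors, stood at 3.30 and 1.03, with 3 probes at -2.33 to -2.27. BPGM, which makes the 2,3-bisphosphoglycerate that loosens oxygen from hemoglobin, KEL (the Kell blood group protein) and EPOR (the erythropoietin receptor) were at -1.16, -1.12 and -1.06. These are genes of the membrane, the nucleus and metabolism of the red cell line, and each of those named was at least 2-fold lower. Other membrane genes of the list were not, with SPTB, the partner chain in the membrane skeleton, at 0.20 (5 probes at -0.14 to 1.19), XK at 0.05 and ADD2 at -0.45.

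Enzymes of heme synthesis were read together. ALAS2, the form of the first enzyme that red cells use, stood at 5.14 and 3.39, a difference of -1.75. ALAS1, the form used by other tissues, stood at 1.24 and 1.18. Further enzymes gave -1.23 (ALAD), -1.17 (UROS), -1.31 (UROD), -1.04 (CPOX), -1.26 (PPOX) and -2.06 (FECH, which inserts the iron). With ALAS2 these were 7 enzymes, each at least 2-fold lower on its brightest probe, with CPOX nearest the line, and under normexp CPOX lay at -0.71. The second PPOX probe gave 0.05. The wider list of 27 iron and heme genes, which holds these enzymes and also HP and LCN2, had 10 members lower, 1 higher and a median of -0.40.

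The globins did not follow. HBA (alpha globin) was at -0.30, from 10.3 in control, and HBB2 (beta globin) at 0.02. They were at the top of the measured range, where the brightest spiked-in RNA, at 9.82 and 9.89, differed by 0.08, and 0 spots were marked saturated. The 7 measured HBA probes ran from -1.02 to 1.07, and globin genes have near-identical copies. TFRC, the transferrin receptor that brings iron into dividing cells, was on the higher side at 0.77, with 3 probes at 0.68 to 0.77. Because the globins carry most of the list's signal, the summed signal of the red cell list went only from 2462 to 2144 times the 75th percentile.

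Platelet and megakaryocyte genes lay low as well, 5 of 9 measured at least 2-fold lower, none at least 2-fold higher and a median of -1.06. CLEC1B, the platelet receptor for podoplanin, stood at 2.58 and 0.22 with 4 probes at -2.50 to -2.09. TUBB1 (the tubulin of platelets) and TREML1 were at -1.88 and -1.73, ITGA2B, a chain of the fibrinogen receptor, at -1.18, and GP1BA, a chain of the von Willebrand factor receptor, at -1.06 from a level of -4.14. VWF and ITGB3, which other cells make too, were at 0.23 and 0.32. With normexp the median of this list was -0.30, with GP1BA at -0.23. The mast cell and basophil list had 1 of 6 lower by the brightest probe, MS4A2 (a chain of the high-affinity IgE receptor) at -1.32, and a median of -0.66. IL1RL1, the interleukin-33 receptor, and HDC, which makes histamine, were at -0.95 and -0.87. The 4 near-identical neighbours of that HDC probe were past 2-fold, at -1.45 to -1.37. HPGDS was at -0.45, and KIT and GATA2 were at 0.09 and 0.20.

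The blood progenitor list stayed near the centre. None of its 9 measured members was 2-fold apart, with KIT at 0.09, MYB at -0.14, CD34 at 0.54 and a median of 0.11. Lymphocyte genes differed less than those of granulocyte granules. In the T and NK cell list 1 of 22 was at least 2-fold higher, IL7R (the interleukin-7 receptor) at 1.17, and none lower, with the T cell receptor chains CD3G and CD3E at -0.74 and -0.58 and a median of 0.21. In the B cell list 1 of 12 was lower, CD79B, a signalling chain of the B cell receptor, at -1.37, and the median was 0.08. None of 10 genes of dendritic cells and MHC class II was 2-fold apart (median -0.08).

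**Figure D4:**
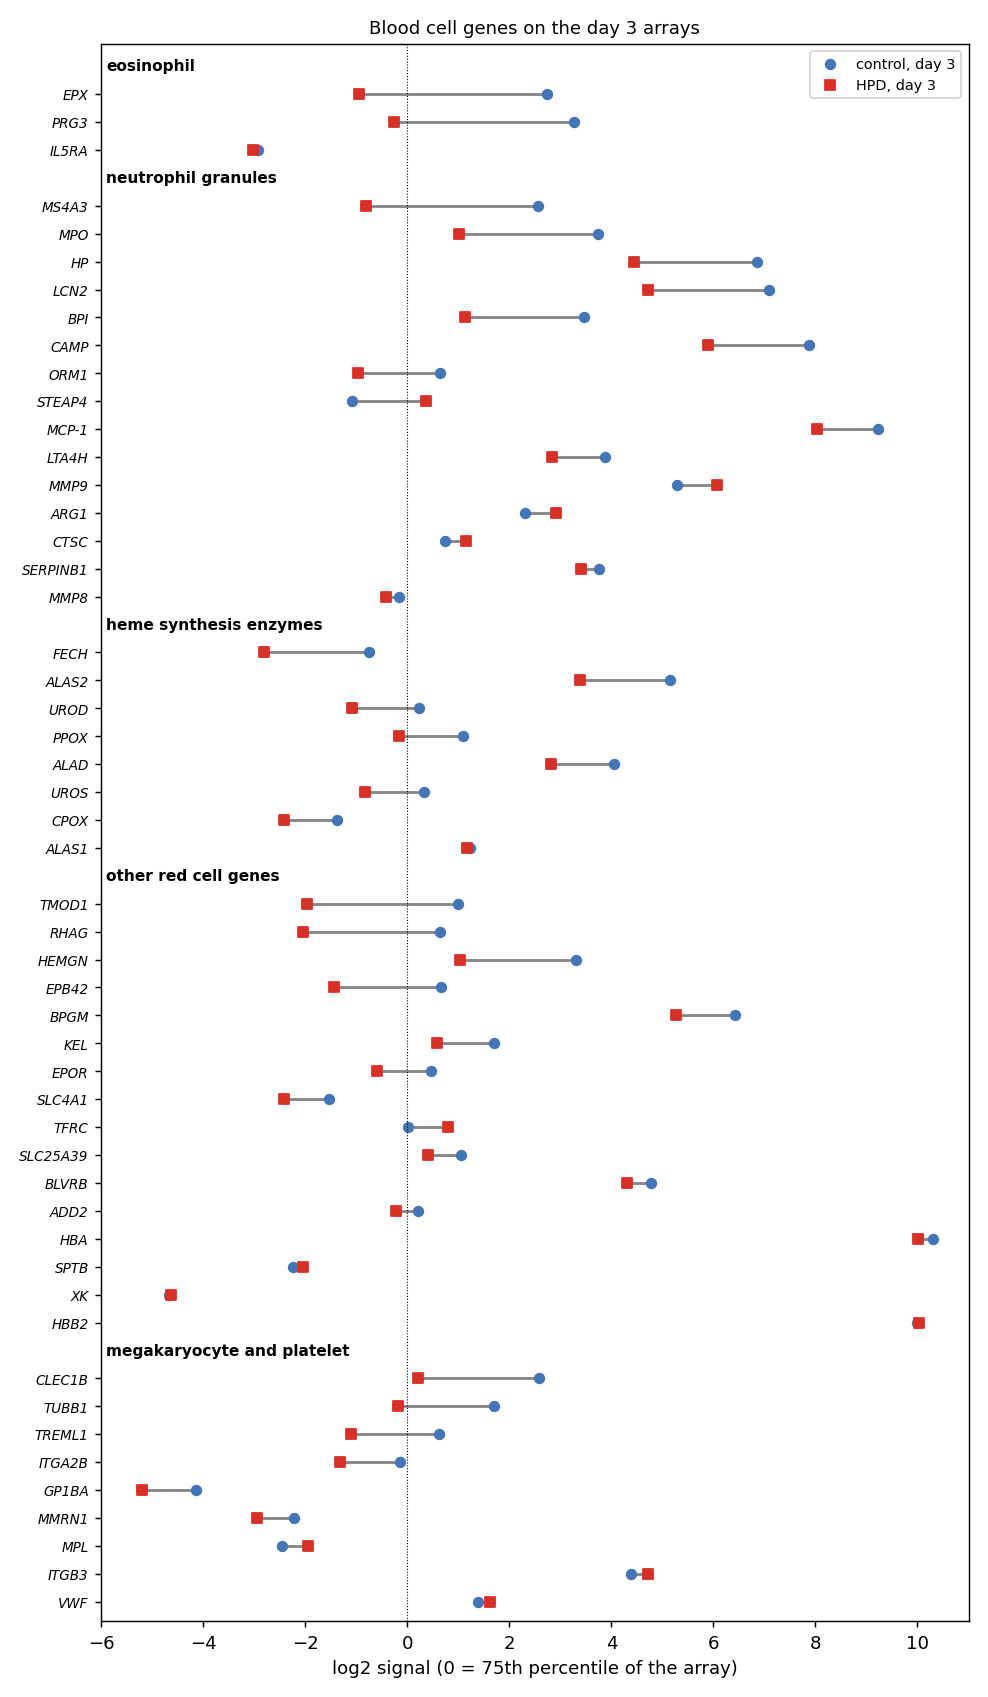
Each row is a gene, with its level (log2, 0 is the 75th percentile of the array) on the control array (blue circle) and the HPD array (red square) of day 3, 1 array each. In the granule and heme groups most squares lie left of the circles, as for EPX at 2.73 and -0.94 and ALAS2 at 5.14 and 3.39, while HBA and HBB2 lie together at the right edge.

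Osteoclast genes were the highest group by median together with those of macrophages. Of 19 measured, 4 were at least 2-fold higher and 1 at least 2-fold lower, 17 lay above 0, and the median was 0.50. ATP6V0D2 stood at 1.24 in control and 2.98 in HPD, and its 4 probes lay between 1.71 and 1.76. CTSK (cathepsin K) stood at 5.13 and 6.35 with 5 overlapping probes at 1.06 to 1.22. DCSTAMP, needed for the fusion of osteoclast precursors, stood at -0.97 and 0.28, and ACP5 (tartrate-resistant acid phosphatase) at 2.27 and 3.37. The chloride channel gene CLCN7 and its partner OSTM1 were at 0.50 and 0.88, MITF, a transcription factor of the lineage, at 0.86, and the proton pump subunit TCIRG1 at 0.46. ATP6V0D1, the common form of the subunit that ATP6V0D2 replaces, stood at 1.45 and 1.39, a difference of -0.06.

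CA2 was the exception in that list. It encodes carbonic anhydrase II, which supplies the acid of osteoclasts and is also a main protein of red cells, and it stood at 4.45 and 2.35, a difference of -2.10 with 5 probes at -2.10 to -2.03. The calcitonin receptor gene CALCR was dim on both arrays, at -4.52 and -4.60. TNFSF11 (RANKL, the osteoclast growth signal), listed with bone matrix, was at 1.20 from a level of -4.28 and at 0.48 under normexp. Its decoy TNFRSF11B had a level of -2.27 on both arrays, a difference of 0.00.

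Macrophage genes had 5 of 28 at least 2-fold higher, none at least 2-fold lower and a median of 0.50. SPP1 stood at 6.53 and 8.28, the highest level in the list, and it is a gene of bone cells as well. LGALS3 (galectin-3) stood at 5.02 and 6.42 with 5 probes at 1.39 to 1.54. MSR1 (a scavenger receptor), MERTK (a receptor for dying cells) and MPEG1 (perforin-2) were at 1.15, 1.12 and 1.09, MERTK from a level of -3.89 and at 0.52 under normexp. The lysosomal proteases CTSL1 and CTSB were at 0.95 and 0.74, CD68 at 0.76 and CD14 at 0.64. The growth factor receptor CSF1R, which defines the lineage, was at -0.05, the complement gene C1QA at -0.28, and FABP4, a fatty acid carrier, at -0.52. The list thus held genes with sizeable positive differences beside a lineage marker near 0.

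Lysosome genes lay mostly above 0, and lipid genes did not. Of 39 lysosome genes 34 lay above 0, CTSK was the 1 member past 2-fold, and the median was 0.31, with the enzyme GLA at 0.70. In the list of lipid uptake and cholesterol 3 of 24 were at least 2-fold higher, LPL (lipoprotein lipase, 2.13 and 3.59), MSR1 and FABP5 (a fatty acid carrier, 3.47 and 4.48). PLIN2, a coat protein of lipid droplets, ABCA1, the cholesterol exporter, and CD36 were at 0.92, 0.98 and 0.82. The cholesterol synthesis genes SQLE and IDI1 were at 0.05 and -0.14. ACSL1, which activates fatty acids, and SCARB1, a receptor for high-density lipoprotein, were at -0.82 and -0.67. In all 11 members lay above 0, and the median of the list was -0.06.

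Matrix proteases had 5 of 35 members at least 2-fold higher, none at least 2-fold lower, 32 above 0 and a median of 0.29. MMP12 stood at 3.45 and 5.69. MMP14, a membrane-bound collagenase, stood at -2.10 and -0.71 with 5 overlapping probes at 1.39 to 1.67. ANPEP (aminopeptidase N) stood at -4.54 and -1.09, a difference of 3.45 that rests on 1 probe and was 1.85 under normexp. MMP28 was at 1.51 from -4.19, and at 0.64 under normexp. The collagenase genes MMP13 and MMP1 were at 0.80 and 0.75, and the gelatinase gene MMP2 and the inhibitors TIMP1 and TIMP3 at 0.12, 0.18 and -0.30. The list of provisional matrix and adhesion had 31 of 33 above 0 and a median of 0.32, with FRAS1 and ITGA3 the 2 members past 2-fold. FN1 (fibronectin) stood at 6.76 and 7.64, and its 11 probes, which overlap one another in 2 regions of the gene, gave 0.77 to 1.07. POSTN, TNC and THBS1, matricellular proteins of wounds, were at 0.79, 0.76 and 0.87, CD44 at 0.72 and the integrin chains ITGA2 and ITGA3 at 0.92 and 1.40, ITGA3 from -4.80 and at 0.55 under normexp.

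**Figure D5:**
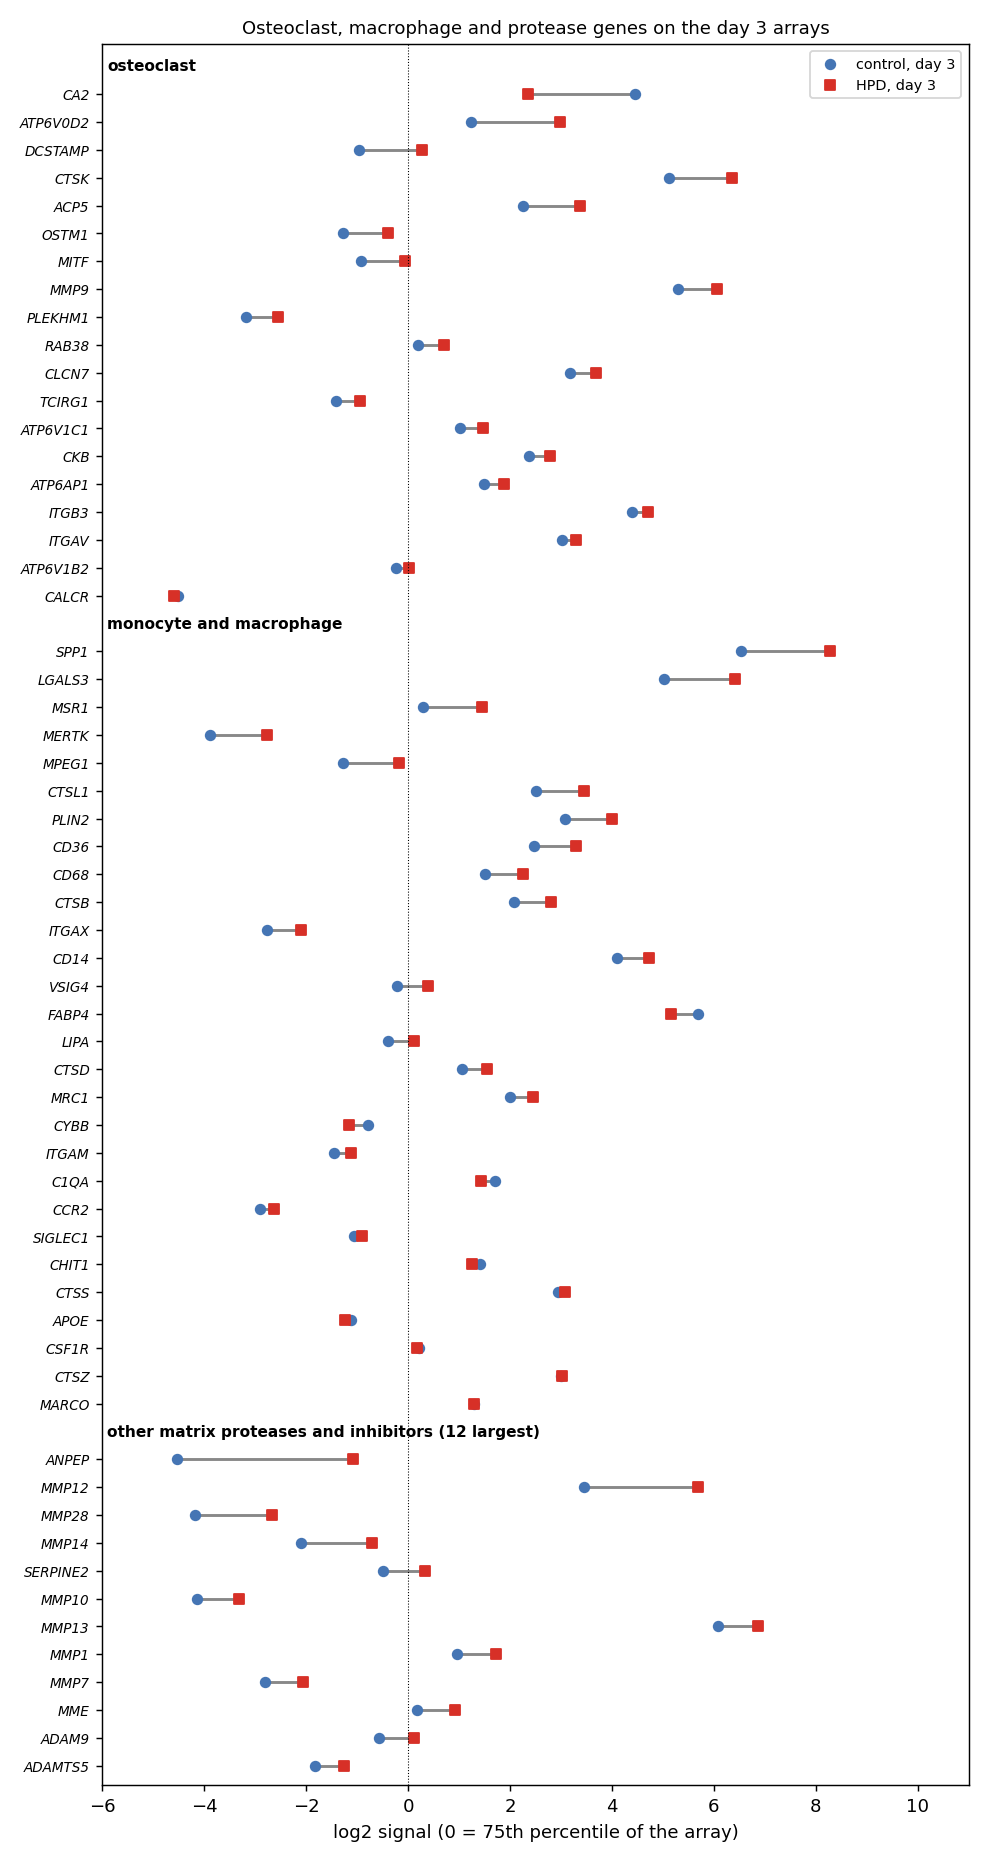
Each row is a gene, with its level (log2, 0 is the 75th percentile of the array) on the control array (blue circle) and the HPD array (red square) of day 3, 1 array each. Most squares lie right of the circles, as for ATP6V0D2 at 1.24 and 2.98, while CA2 lies the other way at 4.45 and 2.35.

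Bone and connective tissue genes differed little. In the osteoblast and bone matrix list 2 of 29 were at least 2-fold higher (SPP1 and TNFSF11) and 1 at least 2-fold lower, with a median of 0.17. MEPE, the lower one, stood at 0.77 and -2.42, and its second probe gave -2.37. COL1A2 had 11 probes at -0.42 to -0.13, and the regulator RUNX2 was at 0.40. DMP1 and PHEX, osteocyte genes like MEPE, were at -0.46 and -0.15, and OMD at -0.61. BMP2, a bone-inducing factor, was at 0.95 with 8 probes at 0.81 to 1.02. None of the 28 collagen genes was 2-fold apart (median 0.15, COL3A1 at 0.24 and COL5A1 at 0.14).

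In cartilage 1 of 12 was lower, the regulator SOX6, at -1.51 with 3 probes at -2.13 to -1.51 and -0.68 under normexp, while COL2A1 and ACAN were at 0.07 and -0.03 and the median was 0.02. Of 18 fibroblast genes only NT5E, an ectonucleotidase, was 2-fold apart, at 1.13 with 3 probes at 1.13 to 1.36. DPT (dermatopontin) was at -0.99 and SELENOP at -0.67, and the median was 0.19. Of 20 contractile genes ACTA2 (smooth muscle actin) was lower, at -1.16 (-0.82 under normexp), LMOD1 higher at 1.01 from -5.01 (0.28 under normexp), and the median was 0.05. Smooth muscle actin and ACTG2, at -0.85, stood apart from TAGLN and MYL9, at -0.23 and -0.12.

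In the endothelial list 1 of 17 was lower and 1 higher, with a median of 0.23. VCAM1, an adhesion molecule for leukocytes, stood at 1.97 and 0.08 with 5 probes at -2.0 to -1.66. TEK, the angiopoietin receptor, stood at -2.50 and -1.04, and PECAM1 was at 0.33. VCAM1 is also carried by macrophages that help red cells mature, so it marks no single cell type. Growth and angiogenic factors had 1 of 33 higher, VEGFD at 1.13 (0.71 under normexp), and 1 lower, IGFBP2 (a carrier of insulin-like growth factors) at -1.36, with a median of 0.10.

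Among 35 inflammatory cytokines and receptors, 2 were at least 2-fold higher and 3 at least 2-fold lower, with a median of 0.22. IL1RN, the interleukin-1 antagonist by its RefSeq accession, stood at 5.89 and 7.48 with 3 probes at 1.1 to 1.59, although the array design labels it IL1R1. PTGS2, the inducible prostaglandin synthase, stood at 2.65 and 3.87 with 3 probes at 1.1 to 1.22. TNF was at 0.93, IL1B and IL6 at 0.21 and 0.31. The lower ones were S100A8, S100A9 and LTB (lymphotoxin beta) at -1.09, followed by IL18 at -0.82 with 7 probes at -0.89 to -0.78. Of 24 chemokines and receptors ENA-78 (the neutrophil attractant CXCL5) was 2-fold higher at 1.07, CXCL8 was at 0.83 and CCL4 at 0.52. GRO-A (CXCL1), CXCR4 and CCL2 lay on the other side at -0.63, -0.60 and -0.30, and the median was 0.25. Neutrophil attractants thus did not share 1 direction.

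Interferon genes had 1 of 12 higher (OASL at 1.02, and 0.34 under normexp), 1 lower (IFIT3 at -1.10, and -0.64 under normexp) and a median of -0.12. Complement genes had 2 of 14 lower, C7 at -1.18 (-0.53 under normexp) and CFP (properdin, which neutrophils store) at -1.13, with C1R at -0.91 and a median of -0.28. CD59 was not counted as lower, since its brightest probe gave -0.435, but all its other probes were past 2-fold, at -1.92 to -1.14. CASP1, the caspase that cuts interleukin-1 and interleukin-18 precursors, stood at 1.85 and 0.65 with 7 probes at -1.41 to -1.06. It was the 1 member of 20 past 2-fold in the list of p53, apoptosis and senescence, where MCL1 and CDKN1A were at 0.72 and 0.77 and the median was 0.05.

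Signalling lists sat slightly above the centre. TGF-beta and BMP genes had 28 of 31 above 0 and a median of 0.35, with 1 member past 2-fold, the receptor BMPR1B at 1.12 from -5.16 (0.28 under normexp), INHBA (an activin chain) at 0.57 and TGFB1 at 0.15. Wnt genes had 27 of 32 above 0 and a median of 0.30, with the receptor FZD6 at 1.05 from -4.33 (0.37 under normexp), WNT5A at 0.94 from -4.16 and the antagonist SFRP2 on the other side at -0.93 with 6 probes at -1.18 to -0.69. Many of these genes were dim, and features with a mean level between -4 and -2 had a median of 0.24 themselves. Under normexp the medians were 0.26 and 0.19.

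Hypoxia and glycolysis genes had 26 of 32 above 0 and a median of 0.23. EGLN3 stood at -0.55 and 2.02, a 5.94-fold difference, and ERO1A, an oxidase of the endoplasmic reticulum, was at 0.85. The glycolytic genes LDHA, PGK1 and TPI1 were at 0.42, 0.41 and 0.28 and the glucose transporter SLC2A1 at 0.49. BNIP3L, a mitophagy receptor that red cells use to clear mitochondria, was 2-fold lower at -1.07. EGLN3 was thus the 1 of 32 at least 2-fold higher.

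ATF3, a stress-induced transcription factor, stood at -4.88 and -2.96 with 4 probes at 1.87 to 2.09, and was 0.73 under normexp. It was the 1 member past 2-fold both of 19 immediate early genes (median 0.26, FOS at 0.68, EGR1 at 0.34) and of 19 genes of the unfolded protein response and heat shock (median 0.08, HSPA5 at 0.12). In amino acid transport 2 of 25 were higher, the taurine transporter SLC6A6 (-4.93 and -1.23, 1 probe, 1.82 under normexp) and the creatine transporter SLC6A8 at 1.13, and 1 lower, SLC16A10 at -1.17, with a median of 0.18. Of 53 cell cycle genes none was 2-fold apart, 8 lay above 0 and the median was -0.36, with the cyclin CCNE1 at -0.92, the replication genes MCM7 and TYMS at -0.82 and -0.80, UBE2C at -0.69 with 5 probes at -0.73 to -0.68 and MKI67 at -0.34. Reference genes had a median of -0.02, with GAPDH and ACTB both at 0.15, and 1 of 12 was at least 2-fold lower.

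Markers of other tissues near a skull defect showed no common direction. Skeletal muscle had 1 of 21 lower, ACTN3 at -1.21 with another probe at 0.33, and a median of 0.17. Brain and meninges had SYT1 at 1.5 and AQP4 at -1.04, which were 0.62 and -0.38 under normexp, among 14, with a median of 0.12. Adipocyte genes had LPL and ADRB3 (1.09) higher among 12, ADIPOQ at -0.89 and a median of -0.26. Epidermis genes had 5 measured of 14 on the array, with EPCAM at -1.05, KRT10 at 1.05 (0.23 under normexp) and a median of 0.21, and tooth formation had 3 of 7 measured (KLK4 at 0.61, median 0.44). Human RNA from the graft was not looked for, since the probes are of rabbit sequence.

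Ranked over all named genes, the largest differences were mostly dim genes on the higher side. Among the 15 highest were MTERF1 (4.09), SLC6A6 (3.70), GAS7 (3.53), ANPEP (3.45), FRAS1 (3.25), C7H1orf146 (3.24), FSHR (2.91), HTR2A (2.62), EGLN3 (2.57), PNLIP (2.39), CA4 (2.38), DNAAF11 (2.34), TMIGD1 (2.31) and SMARCAD1 (2.27). EGLN3 is the 1 of them with several probes all past 2-fold. Other probes of MTERF1, C7H1orf146, FSHR, HTR2A, DNAAF11, TMIGD1 and SMARCAD1 gave 0.30, 0.28, 0.06, -0.51, 0.44, 0.37 and 0.62 at the lowest, although another DNAAF11 probe gave 1.23, and SLC6A6, GAS7, ANPEP, FRAS1, PNLIP and CA4 were measured by 1 probe. Apart from EGLN3 and DNAAF11, each of those named here had 1 probe past 2-fold.

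On the lower side the lowest 15 held FAXC (-4.45), EPX, PRG3, SLC35F4 (-3.42), MS4A3, MEPE, TMOD1, TSPAN33 (-2.82), MPO, RHAG, INMT (-2.67), SERPINB10 (-2.65), MEST (-2.65) and ELOVL4 (-2.61). Single probes carried FAXC and ELOVL4, whose highest probes gave 0.55 and 1.12, and other MEST probes gave -1.07 to -0.52. TSPAN33, a tetraspanin of red cell precursors, had 5 probes at -2.82 to -2.26, and SERPINB10, a protease inhibitor of bone marrow cells, had 2 at -2.65 and -2.59. PRG3, SLC35F4, TMOD1, MPO, RHAG and INMT were measured by 1 probe each, as were 6 genes of the higher end. With several probes, all past 2-fold, were EPX, MS4A3, MEPE, TSPAN33 and SERPINB10.

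Among named genes of mean level 0 or over, the highest were EGLN3, MMP12, SPP1, ATP6V0D2, FAM135A (1.70, other probe 0.46 at the lowest), KMO (1.67), IL1RN, PHF21B (1.47), LPL and LGALS4 (1.41). KMO, kynurenine monooxygenase of tryptophan breakdown, had probes at 1.53 and 1.67. Among the lowest of this class were EPX, PRG3, MS4A3, MPO, SERPINB10, HP, CLEC1B, LCN2 and BPI, genes of blood cells.

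Where a gene had several probes, all of them past 2-fold, genes were ranked by the probe nearest 0. The highest were EGLN3, ATF3, ATP6V0D2, NTS, KMO, LGALS3, CD200R1, MMP14, DCSTAMP and NT5E. NTS, the neurotensin peptide, stood at -2.39 and -0.71 with 5 overlapping probes at 1.57 to 1.74, and CD200R1, an inhibitory receptor of myeloid cells, at -2.78 and -1.38 with 3 at 1.39 to 1.59. The lowest by that probe were EPX, MS4A3, SERPINB10, MEPE, MMP27 (3 probes at -2.95 to -2.33), HP, HEMGN, TSPAN33, CSTA and EPB42. CSTA (cystatin A, a cathepsin inhibitor) stood at 1.29 and -0.98 with 5 overlapping probes at -2.38 to -2.12. In all, 66 named genes with several probes were 2-fold higher by the brightest, of which 18 had every probe past 2-fold, and 96 were lower, of which 53 had.

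Further genes were well above background on 1 array and on no probe of the other, which gives a bound. The bright array's level is set against the dim probe's own value or the lowest signal well above background on that array, whichever is higher. Of all 10076 named genes, 191 were such genes higher with HPD, 44 of them at least 2-fold, and 84 lower, 19 of them at least 2-fold. A gene enters here only by being bright on 1 array, so these counts carry no test. On the HPD array 86.4% of spots were well above background, against 84.2% on the control array. The dimmest control RNAs were 0.39 to 0.51 higher on the HPD array. How much of the imbalance this accounts for was not tested. The highest bounds were OR5I1 at least 30.5-fold higher, AK9 at least 8.11-fold, HSPA12A at least 7.56-fold, OPRK1 at least 6.40-fold, CTRC at least 6.07-fold, SCN1A at least 4.99-fold, KCNJ10 at least 4.76-fold and BCAS1 at least 4.25-fold. Of these, HSPA12A had 3 of its 5 probes bright on the HPD array and SCN1A both, while OR5I1 had 1 of 2 and AK9 1 of 5. On the lower side they were OSTN (osteocrin, a peptide of bone and muscle) at least 13.5-fold, TTR at least 6.76-fold, WNT7A at least 4.93-fold, IRAG1 at least 3.53-fold, GJB2 at least 3.40-fold, CCL7 at least 3.27-fold, TMEM52B at least 3.13-fold and VWA3B at least 3.05-fold. Only 1 of 5 probes was bright on the control array for OSTN, TTR, GJB2 and CCL7, and 1 of 2 for VWA3B. WNT7A, IRAG1 and TMEM52B have 1 probe each on the array.

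The same comparison on days 5 and 7, 1 array a side on another slide, gave 949 features at least 2-fold higher (4.93%) and 352 lower (1.83%) on day 5, and 326 (1.75%) and 167 (0.896%) on day 7. Of 541 features that were 2-fold lower on day 3 and measured on day 5, 143 were 2-fold higher there and 6 lower, against 4.98% and 1.63% of all features measured on both days. Of 646 that were 2-fold higher on day 3, 109 were higher and 8 lower on day 5. The day 3 direction of the lower features was therefore not the direction of day 5, though no test of this difference between days exists.

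The levels of all 6 arrays show where the granule genes lay. PRG3 stood at 3.27 and -0.26 on day 3 (control and HPD), at -4.88 and -4.02 on day 5 and at -4.48 and -3.35 on day 7. EPX was not well above background on any array of days 5 and 7. MPO stood at 3.75 and 1.0, then -1.97 and -1.29, then -1.24 and -0.82. In these genes the HPD array of day 3 lay between the control array of day 3 and the later arrays. ALAS2 did otherwise, at 5.14 and 3.39, then 5.53 and 6.03, then 4.91 and 4.73, with the HPD array of day 3 the lowest of all 6. The red cell list as a whole, 21 genes, did not share this. Its medians were 1.0 and -0.23 on day 3, 0.16 and 0.37 on day 5 and -0.645 and 0.05 on day 7. There the control array of day 7 was the lowest. The medians over the 19 osteoclast genes were 1.24 and 1.89 on day 3, 1.67 and 1.87 on day 5 and 1.69 and 2.28 on day 7, so that the control array of day 3 was the lowest of the 6. Days and slides cannot be told apart in these levels, and the share of blood in each sample was not tested.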

How the data were processed

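RNA of newly formed tissue was amplified from 0.2 μg and labelled with Cy3, per the labels' protocols. Per the file headers, the deposited intensity of each spot came from Agilent Feature Extraction 10.5.1.1 with background subtraction and detrending, and is linear. Spots marked as outliers on day 3 removed 11 probes, and repeated spots were averaged as log2. Probes were named by RefSeq accession (22141) or by the array's own symbol, through RefSeq assembly mOryCun1.1 (names only). In all 22736 probes had 1 symbol, 23 several and 20844 none. Sequences and oryCun2 coordinates come from the deposited files. On day 3, 84.2% (control) and 86.4% (HPD) of spots were well above background. For arrays, their number limits the precision.

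No test was possible, so folds, ranks and counts past 2-fold are given. The counting and the search for overlapping probes were tested on simulated data. The members and lists were chosen with earlier results of these data known. Named genes are the 15 highest and 15 lowest, the 10 at each end with a mean level of 0 or over, the 10 at each end with several probes all past 2-fold, per list up to 8 with the largest difference and all past 2-fold, 8 bounds each way, and defining markers; a few of these genes are not reported here. Members named for a small difference, and the heme enzymes and overlapping probes as groups, were chosen after their values were seen. Alternatives were normexp (limma 3.58.1, R 4.3.3, offset 50), no background subtraction, median, quantile and spike-in scaling, the mean of a gene's probes, no filter, a mean level of -3 or over, 1.5-fold and 3-fold thresholds and the software's spot error. Tables and plots used Python 3.11.15 and pandas 2.3.3.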

Additional observations from a re-analysis of the deposited data

Results flagged for a closer look

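The calprotectin genes S100A8 and S100A9 differed in opposite directions between days. S100A8 was at -1.20 on day 3, at 1.69 on day 5 and at 1.90 on day 7 (HPD minus control, log2), and S100A9 at -1.53, 1.48 and 1.36. Both were well above background on all 6 arrays. S100A8 levels were 9.4 and 8.20 (control and HPD) on day 3, 7.02 and 8.72 on day 5 and 3.01 and 4.91 on day 7. The difference between days was not tested, since each day has 1 array a side. In all, 31 of 462 features that were 2-fold lower on day 3 and measured on all arrays were 2-fold higher on both later days, and 0 of 618 that were 2-fold higher on day 3 were 2-fold lower on both. The day 3 direction was kept past 2-fold on both later days by 18 of the 618 and 0 of the 462. Of all features measured on day 3 and the later day, 4.98% were 2-fold higher on day 5 and 1.57% on day 7. The shares of all features 2-fold higher on both days, or 2-fold lower on both, were not counted. The counts over both days therefore have no matching share to be read against.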

How the results depend on the processing

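No paired analysis was possible because each treatment and day has 1 array. Counts moved with the background correction: normexp gave 557 features 2-fold apart (210 higher, 347 lower), and no background subtraction 734 (315 higher). Median scaling left 453 higher, no filter on dim probes 2336 apart with 1530 higher, and a mean level of -3 or over 374 higher. At 1.5-fold 3804 were apart (2531 higher, 1273 lower) and at 3-fold 378 (210 and 168). The median of all features was -0.043 with median scaling, -0.007 with spike-in scaling and 0.032 with quantile normalization. Requiring a difference above 2 times the software's spot error left all 1326. Even for a dim gene such as KRT10, with an error of 0.39, 2 times the error is below the 2-fold line. This setting therefore could not sort the calls. Of 117 genes that the naming rule gave past 2-fold, 87 stayed past 2-fold with normexp and 97 without background subtraction. With median scaling 101 stayed, with spike-in scaling 103, and with quantile scaling and with the mean of probes 107 each. Under the -3 limit 97 of them were still measured, all past 2-fold. None changed sign in any of these settings. The genes were picked for being past 2-fold, and median and spike-in scaling move all genes by the same small amount. A sign change could not occur with those scalings, so its absence carries no test. List medians near 0 had no settled direction: 15 of 43 changed sign in at least 1 setting (11 with median scaling, 8 with spike-in scaling, 7 with quantile normalization, 3 each with the mean of probes and the -3 limit, 1 each with the other 3), and all 15 were within 0.21 of 0. Of those at least 0.2 from 0, the mean of probes turned the T and NK cell median to -0.018 and the -3 limit the epidermis median to -0.254. Of the rest, the B cell median, 0.079, was -0.304 with the mean of probes. The granule, red cell, platelet, osteoclast and macrophage medians kept their sign. Signal over background limits what the dim genes show.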
